A study of Mus musculus with 2 samples.

Results

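The genes described here are 9 members of the enzyme and inhibitor families of matrix turnover, the matrix metalloproteinases Mmp8, Mmp9, Mmp12, Mmp13, Mmp14, Mmp19 and Mmp25 and the tissue inhibitors of metalloproteinases Timp1 and Timp2. They were looked up by symbol among the 31253 genes listed in the count tables. The tables list 17 other Mmp and Timp genes, so that 9 of 26 are described.

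Matrix metalloproteinases are zinc-dependent enzymes that cut collagens, elastin, gelatin, proteoglycans and many growth factors and chemokines. They are made as inactive proenzymes, are activated by other proteases, and are inhibited by the Timp proteins, which bind the active site. In tumors they are made largely by cells of the stroma and by myeloid cells, among them neutrophils and macrophages.

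The data are single-cell RNA sequencing (BD Rhapsody, which tags each captured mRNA molecule with a unique molecular identifier, UMI) of CD45+ cells sorted from subcutaneous B16-F10 melanoma, a transplantable mouse tumor line, at day 10 after injection of 200000 tumor cells. There was 1 library from Irg1+/+ hosts and 1 from Irg1-/- hosts, each made from tumor pieces of 100 mm3 from 3 mice combined before sorting of 6000 cells. Hosts were female mice of 8 to 10 weeks on a C57BL/6J background, the knockout was in the whole body, and the same tumor line was injected in both groups. Irg1 (Acod1 in the tables) encodes the enzyme that makes itaconate, and the comparison of genotypes asks how its loss in the host changes the immune cells of the tumor. Because each genotype is 1 pooled library, host genotype, mice, pool and preparation cannot be told apart, no test was possible, and every interval printed here covers counting error only.

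The library labelled Irg1+/+ held 6408 barcodes with 43617546 UMIs and a median of 4560 UMIs per barcode, and the library labelled Irg1-/- held 5896 barcodes with 36432067 UMIs and a median of 4635. Cells with over 200 genes and less than 10% of UMIs from mt- genes were kept, 6284 and 5794 cells with 42105693 and 35307041 UMIs after mt- genes were removed. The files shared 36 barcodes, all of them kept in both. Ptprc, which encodes CD45, had a UMI in 88.0% of kept cells of the library labelled Irg1+/+ and in 91.5% of those of the library labelled Irg1-/-.

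The knocked-out gene did not check the labels. Acod1 was at 87.8 CPM (UMIs of a gene per 1000000 UMIs) over all kept cells of the library labelled Irg1+/+ (95% Poisson interval 85.0 to 90.7) and at 107.8 CPM in the library labelled Irg1-/- (104.4 to 111.2). In neutrophil-like cells, where it was most abundant of the classes looked at, it was at 2245 and 1830 CPM. Which part of the gene is deleted is not given in the sources used here, and UMIs counted at the 3′ end of a transcript check nothing if the deleted part lies elsewhere. The libraries are therefore called by their labels throughout, and each direction below is a difference between the library labelled Irg1-/- and the library labelled Irg1+/+.

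Cells were sorted into classes by gates on marker genes, none of them an Mmp or Timp gene, counted per 10000 UMIs of the cell. A class is a range on such a score, not a type: for the hypoxic gate (which includes Vegfa, Nos2, Hilpda, Ndrg1, Egln3 and Slc2a1), 1065 cells lay above the cutoff and 384 within 20% of it. The classes named most often here were neutrophil-like (54 cells in the library labelled Irg1+/+ and 160 in the library labelled Irg1-/-), Vcan monocyte-like (456 and 590), hypoxic macrophage-like (398 and 265), macrophage-like with high MHC II genes (297 and 342) or with high Mrc1 (154 and 86), the small Ccl24 Mgl2 (85 and 58) and Lyve1 Cbr2 (31 and 48) macrophage-like states, and mature dendritic cell-like (403 and 323). Among the 10 genes with the largest fold in a class, those of the neutrophil-like, Vcan monocyte-like, Ccl24 Mgl2 and Lyve1 Cbr2 classes held 3 of their own markers, those of the hypoxic class 2, Nos2 among them, those of the mature dendritic cell-like class 1 (Apol7c), and those of the Mrc1 high class none of any list. Those of the MHC II high class held none of its own and 1 of the nonclassical monocyte list (Cd300e), so that both high classes are read only as macrophage-like cells with high counts of those genes. Those of macrophage-like cells that met no state gate likewise held Cd300e and none of the macrophage list, and those of the Vcan monocyte-like class also included 5 immunoglobulin genes. T, NK and B-like cells (1782 and 1544, median 3356 and 2727.5 UMIs) give the level that free RNA leaves in cells that should lack most of these transcripts.

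Mmp12 and Mmp13, which lie near each other on chromosome 9, had the largest differences in UMIs between the libraries, and their promoter sequences are shown for that reason. RefSeq (build GRCm38.p6) held promoters for 7 of the 9 members. A search of the 250 bases before each start for TGANTCA on both strands, the letters that AP-1 factors (Fos and Jun dimers) bind, found a match in 2217 of 32851 promoters of the same length (6.75%). That share is of promoters, not of genes, and a gene can have more than 1 promoter. Among the members, Mmp12 (at 1 of its 2 listed starts) and Mmp13 held a match. The Mmp12 start with the match (7347374) lies inside the gene, and its start near the first base of the gene (7344397) held none. Below are the 80 bases before the Mmp12 start with the match and before the Mmp13 start, 5′ to 3′ on the plus strand, with the match in capitals.
Mmp12, chr9:7347294-7347373: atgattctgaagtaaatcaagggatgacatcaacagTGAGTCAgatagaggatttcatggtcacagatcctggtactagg
Mmp13, chr9:7272434-7272513: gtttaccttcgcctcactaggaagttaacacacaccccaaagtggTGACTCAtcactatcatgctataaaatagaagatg
The match lay 44 bases before this Mmp12 start and 35 bases before the Mmp13 start. Mmp13 also held TATAAA, which 4063 promoters of that length held (12.4%). The matches are descriptions of letters, and no factor's binding was measured.

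The 9 genes were highest in different classes, as the plot of CPM by class shows. Where a class is called the leading one, it is the myeloid class with the highest mean CPM of both libraries among those with at least 30 cells in each. Mature dendritic cell-like cells could lead, but the other dendritic cell-like classes (cDC1, cDC2 and pDC) were kept for reference and could not. By that rule Mmp8 and Mmp9 led in neutrophil-like cells, Mmp12 and Mmp13 in hypoxic macrophage-like cells, Mmp14 in MHC II high macrophage-like cells, Mmp19 in Vcan monocyte-like cells, Mmp25 in mature dendritic cell-like cells, Timp1 in Ccl24 Mgl2 macrophage-like cells and Timp2 in Lyve1 Cbr2 macrophage-like cells. For Mmp8 and Timp1 the leading class depended on a gate that was revised after these values had been seen: with the first gates both led in eosinophil-like cells, Mmp8 through 63 UMIs in 4 cells of the library labelled Irg1+/+ (944.6 CPM, against 0 UMIs in the other library) and Timp1 through 17 UMIs in 1 cell of the library labelled Irg1-/- (130.8 CPM, against 0 UMIs in the other library).

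**Figure D1:**
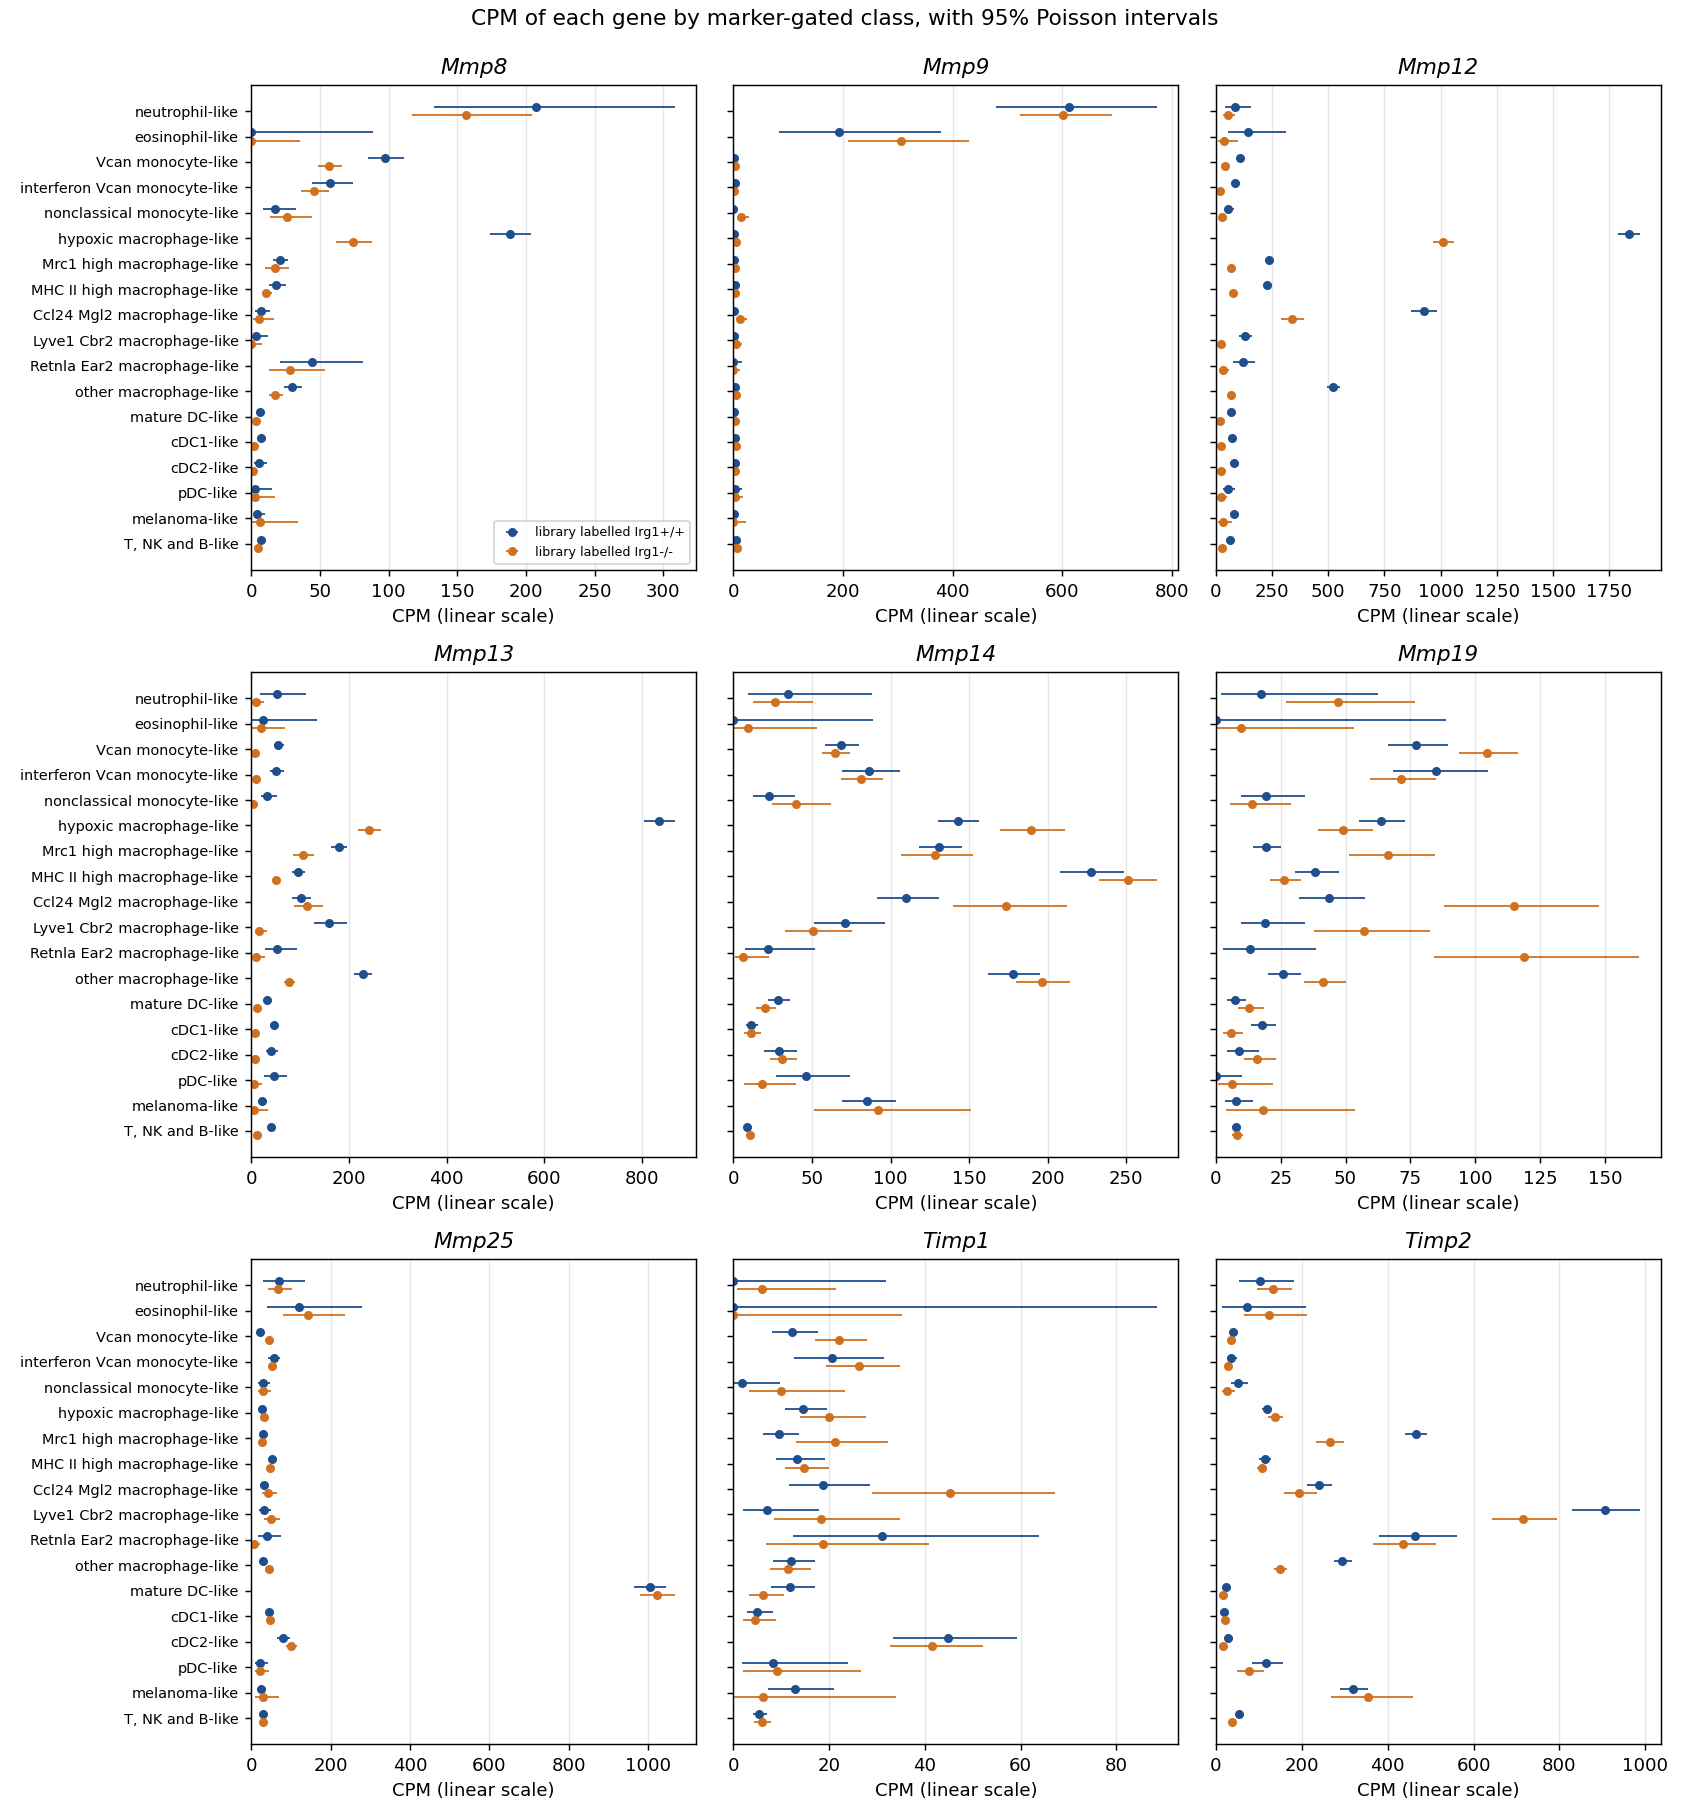
CPM (linear axis) of each gene in each marker-gated class, with points for the library labelled Irg1+/+ (blue) and the library labelled Irg1-/- (orange) and bars for exact 95% Poisson intervals of counting error. Mmp12 and Mmp13 stand highest in hypoxic macrophage-like cells, Mmp9 in neutrophil-like cells, Mmp25 in mature DC-like cells and Timp2 in Lyve1 Cbr2 macrophage-like cells, in both libraries.

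Mmp12, macrophage elastase (chromosome 9, 7344381 to 7369499, plus strand, GRCm38), cuts elastin and is made mainly by macrophages. Hypoxic macrophage-like cells had 5907 UMIs in the library labelled Irg1+/+ (1837 CPM, 1791 to 1885) and 1772 in the library labelled Irg1-/- (1011 CPM, 964 to 1059), a log2 ratio of -0.86 (counting interval -0.94 to -0.79). The next class was the Ccl24 Mgl2 state, at 924.0 and 337.2 CPM, whose intervals lay below those of the hypoxic class in each library. Then came other macrophage-like cells, which met no state gate and had Cd300e but none of the macrophage list among their 10 leading genes, at 522.7 CPM in the library labelled Irg1+/+ but 68.1 in the library labelled Irg1-/-, where they were not apart from the MHC II high and Mrc1 high states. Mrc1 high and MHC II high cells were not apart from each other in either library, at 235.4 and 229.4 CPM against 67.5 and 77.2.

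In the hypoxic, Ccl24 Mgl2, other, Mrc1 high and MHC II high classes, which were above T, NK and B-like cells in both libraries, the Mmp12 level was lower in the library labelled Irg1-/-, with log2 ratios from -0.86 in hypoxic cells to -2.94 (-3.17 to -2.71) in other macrophage-like cells. The T, NK and B-like cells were lower as well, at 62.4 against 28.6 CPM (log2 ratio -1.12, -1.35 to -0.90), a difference within that range. This reference pools cells of unequal share, with 1424 and 840 T-like cells and 297 and 638 NK-like cells. In T-like cells Mmp12 was at 62.9 and 24.9 CPM and in NK-like cells at 59.1 and 39.9 CPM (log2 ratio -0.57, -1.08 to -0.04). Vcan monocyte-like cells, at 109.5 and 40.2 CPM, were therefore not apart from NK-like cells in the library labelled Irg1-/-. Levels in mature dendritic cell-like cells (67.1 and 18.1 CPM), cDC1-like cells (73.7 and 22.2), cDC2-like cells (79.0 and 24.4) and nonclassical monocyte-like cells (56.1 and 28.0) were close to those in lymphocyte-like cells and are read as background, as are those of interferon Vcan monocyte-like (20.7) and Lyve1 Cbr2 cells (22.4) in the library labelled Irg1-/-. When the T, NK and B-like level was subtracted, an alternative chosen after seeing the data, the ratio in hypoxic cells was -0.85. The subtracted level is small beside that of hypoxic cells, so the ratio could move little, and the part of free RNA was not tested by it.

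Mmp13, collagenase 3 (chromosome 9, 7272514 to 7283331, plus strand), a neighbor of Mmp12, had 2684 UMIs in hypoxic macrophage-like cells of the library labelled Irg1+/+ and 424 in those of the library labelled Irg1-/-. These are 834.8 CPM (803.5 to 867.0) and 241.9 CPM (219.4 to 266.0), a log2 ratio of -1.79 (-1.94 to -1.64) and the largest difference of any member in its leading class. Below the hypoxic class, other macrophage-like cells were at 228.9 and 78.4 CPM, Mrc1 high cells at 178.9 and 105.8, Lyve1 Cbr2 cells at 159.9 and 16.3 (8 UMIs in the second library, not apart from T, NK and B-like cells), and MHC II high cells at 96.8 and 51.1. One macrophage-like class did not share the direction: Ccl24 Mgl2 cells were at 102.0 and 114.9 CPM, a log2 ratio of 0.18 with an interval of -0.30 to 0.63. T, NK and B-like cells were at 40 and 12.9 CPM (log2 ratio -1.63), and Vcan monocyte-like cells, at 55.6 and 8.29 CPM, were below them in the library labelled Irg1-/-. With the lymphocyte-like level subtracted, which is again small beside that of hypoxic cells and could move the ratio little, the ratio there was -1.80.

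The spread of both genes over hypoxic cells was also counted, with intervals that treat cells as independent draws from 1 library and so compare these libraries, not genotypes. Before thinning, 61.1% of hypoxic cells of the library labelled Irg1+/+ and 47.5% of those of the library labelled Irg1-/- had an Mmp12 UMI, against 23.4% and 11.4% of T, NK and B-like cells. When each cell was thinned to 2000 UMIs, which left out 42 and 36 shallower hypoxic cells, the shares were 41.01% (exact binomial interval 35.9 to 46.3) and 38.4% (32.1 to 45.1), against 10.1% and 5.34% of T, NK and B-like cells. Thinned cells with Mmp12 held 7.34 UMIs of it on average in the library labelled Irg1+/+ and 4.78 in the library labelled Irg1-/-. For Mmp13 the thinned shares were 30.9% (26.1 to 36.0) and 15.3% (10.9 to 20.6), against 6.54% and 2.28% of T, NK and B-like cells. Before thinning they were 46.7% and 23.4%, against 15.6% and 4.66%. Thinned cells with Mmp13 held 4.24 and 3.29 UMIs of it on average. Whether the genes differ in this respect was not tested.

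Few cells held most of the UMIs of both genes. The tenth of hypoxic cells with the most Mmp12 had 75.9% of its UMIs in the library labelled Irg1+/+ and 73.1% in the other, and for Mmp13 these shares were 80.7% and 86.8%. The richest single cell had 451 Mmp12 UMIs in the library labelled Irg1+/+ and 143 in the library labelled Irg1-/-, and for Mmp13 357 and 35. Without the richest cell of each library, a check added after seeing the data, the Mmp13 ratio was -1.71. The share of thinned hypoxic cells with at least 10 Mmp12 UMIs was 10.96% (7.91 to 14.7) and 5.24% (2.74 to 8.97), and for Mmp13 3.09% (1.55 to 5.46) and 1.31% (0.27 to 3.78).

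**Figure D2:**
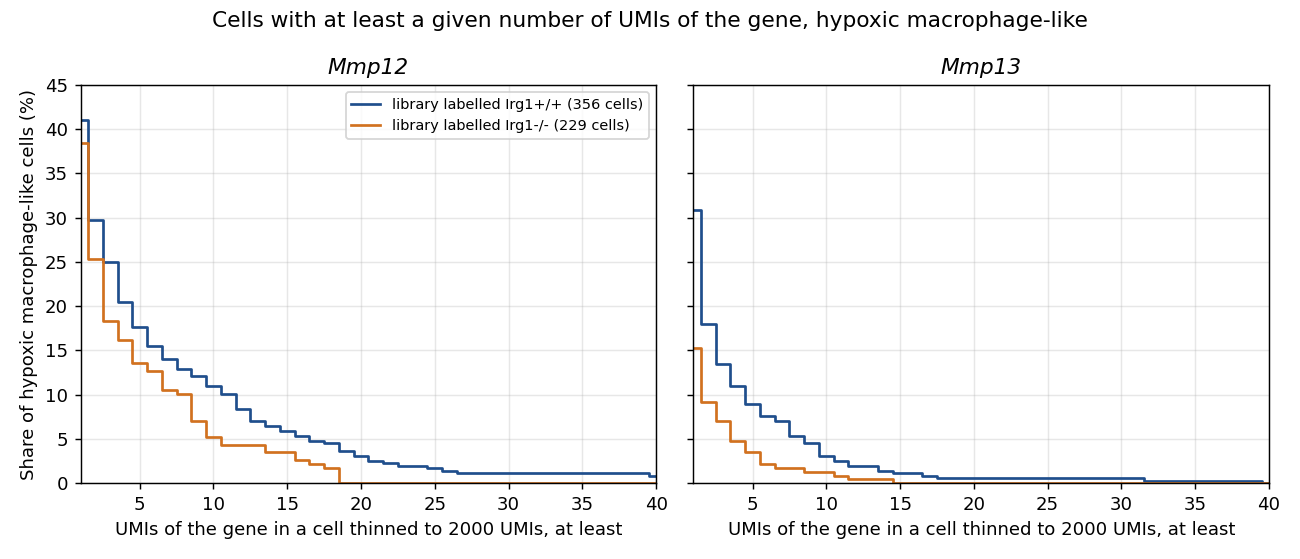
Share of hypoxic macrophage-like cells (vertical axis, percent) with at least the number of UMIs on the horizontal axis, after each cell was thinned to 2000 UMIs, for Mmp12 (left) and Mmp13 (right) in the library labelled Irg1+/+ (blue, 356 cells) and the library labelled Irg1-/- (orange, 229 cells). At 1 UMI the Mmp12 lines start at 41.01% and 38.4% and the Mmp13 lines at 30.9% and 15.3%.

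Hypoxic cells with Mmp13 often carried Mmp12 as well, and the reverse held less often. Of thinned hypoxic cells with Mmp13, 67.3% in the library labelled Irg1+/+ and 65.7% in the library labelled Irg1-/- also had Mmp12, against 29.3% and 33.5% of those without Mmp13. Of thinned hypoxic cells with Mmp12, 50.7% and 26.1% also had Mmp13. Both genes were found in 74 of 356 and 23 of 229 thinned hypoxic cells. The markers that set the hypoxic gate were at similar summed levels in both libraries, 7133 and 7357 CPM. Cells were chosen by these same markers, so this cannot show that the hypoxic cells of both libraries were otherwise alike. These cells had a median of 6182.5 and 5789 UMIs and a mean of 8078 and 6615.

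Mmp8, neutrophil collagenase (chromosome 9, 7558456 to 7568485, plus strand), is stored in the granules of mature neutrophils. Its leading class, neutrophil-like cells, rested on 24 and 53 UMIs, at 207.3 CPM (132.8 to 308.4) and 156.5 CPM (117.2 to 204.6). The log2 ratio was -0.42, with an interval of -1.13 to 0.35 that includes no difference. Without the richest cell of each library it was -0.07. Of neutrophil-like cells 18.5% and 17.5% had a UMI, against 2.86% and 1.42% of T, NK and B-like cells, and after thinning 3 of 15 and 10 of 62 cells, or 20% and 16.1%, against 1.05% and 0.18%. Neutrophil-like cells held only 1.51% and 7.22% of the gene's UMIs, and most lay in the monocyte and macrophage range. Hypoxic macrophage-like cells were at 188.2 and 74.2 CPM (log2 ratio -1.34, -1.63 to -1.07), and held 38.1% and 17.7% of the UMIs of Mmp8. In the library labelled Irg1+/+ they were not apart from neutrophil-like cells, and in the library labelled Irg1-/- they were. Vcan monocyte-like cells were at 97.3 and 56.8 CPM (-0.78, -1.07 to -0.49). T, NK and B-like cells had 7.18 and 4.64 CPM.

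Mmp9, gelatinase B (chromosome 2, 164940780 to 164955850, plus strand), had its highest levels in granulocyte-like cells. Neutrophil-like cells had 71 and 204 UMIs, at 613.1 CPM (478.9 to 773.4) and 602.2 CPM (522.4 to 690.7), a log2 ratio of -0.03 (-0.42 to 0.38). Eosinophil-like cells came next, at 192.0 and 305.1 CPM from 8 and 32 UMIs, with intervals apart from neutrophil-like cells in both libraries. Macrophage-like cells as a whole had 1.90 and 3.95 CPM, at or below the 5.15 and 5.93 CPM of T, NK and B-like cells. Of neutrophil-like cells, 46.3% and 44.4% had a UMI, against 1.96% and 1.94% of T, NK and B-like cells. After thinning only 15 and 62 neutrophil-like cells were left, of which 6 and 35, or 40% and 56.5%, had a UMI, against 1.05% and 1.05%.

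Over all kept cells, Mmp9 was at 5.13 CPM in the library labelled Irg1+/+ and 11.5 in the library labelled Irg1-/-, a log2 ratio of 1.16 (0.92 to 1.41). Neutrophil-like cells were 0.86% of kept cells in the first and 2.76% in the second. When every class was given the mean of its shares of UMIs in both libraries, the Mmp9 ratio was 0.32. The same step moved the other members less: Mmp12 went from -1.48 to -1.21, Mmp13 from -1.90 to -1.65 and Timp2 from -0.65 to -0.41.

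Mmp25, also called leukolysin, is a membrane-anchored enzyme first known from leukocytes (chromosome 17, 23628311 to 23645277, minus strand). It was highest in mature dendritic cell-like cells. Its level there was 1004 CPM (965 to 1044, 2468 UMIs) in the library labelled Irg1+/+ and 1023 CPM (981 to 1068, 2149 UMIs) in the library labelled Irg1-/-. The log2 ratio was 0.03, with an interval of -0.06 to 0.11. This class held 61.0% and 56.3% of all Mmp25 UMIs. The next class, eosinophil-like, was at 120.0 and 143.0 CPM from 5 and 15 UMIs, followed by cDC2-like cells at 79.9 and 100.9 CPM, and neither was apart from the class after it. After thinning, 78.4% and 76.4% of mature dendritic cell-like cells had a UMI, against 6.40% and 4.90% of T, NK and B-like cells, and before thinning 82.6% and 87.9%, against 12.9% and 10.9%. Its UMIs were spread more evenly than those of Mmp12, with 32.6% and 30.1% in the tenth of cells with the most. In Vcan monocyte-like cells, Mmp25 was at 21.7 and 45.6 CPM (log2 ratio 1.06, 0.60 to 1.57), of which the level in the library labelled Irg1+/+ is not above the 29.9 CPM of T, NK and B-like cells.

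**Figure D3:**
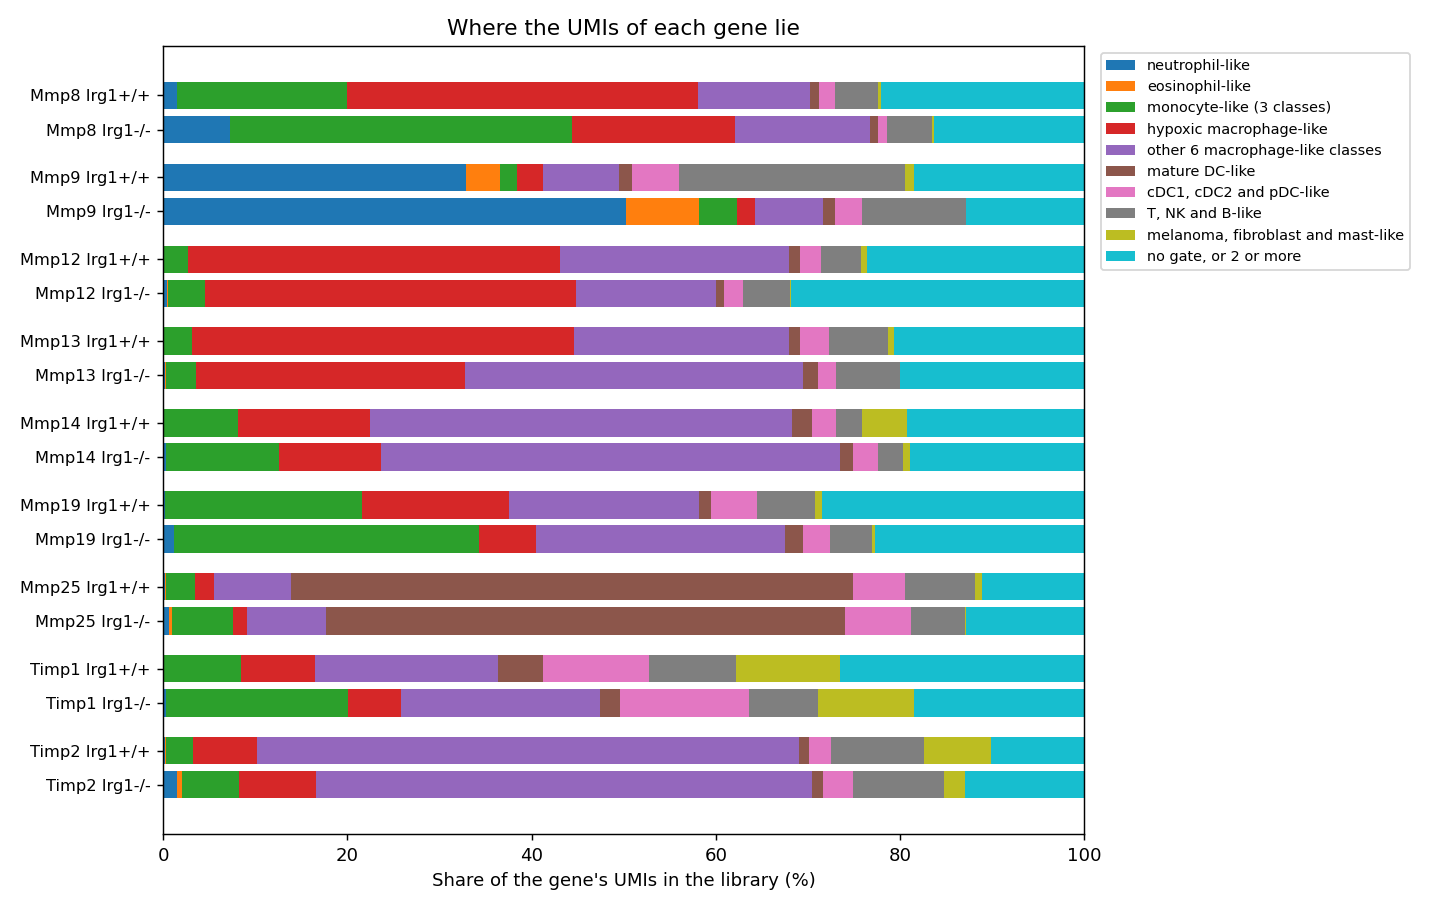
Share of the UMIs of each gene (horizontal axis, percent of the gene's UMIs in a library) that lies in each group of classes, 1 bar per gene and library. Mature DC-like cells hold 61.0% and 56.3% of Mmp25, hypoxic macrophage-like cells 40.5% and 40.3% of Mmp12, and neutrophil-like cells 32.9% and 50.2% of Mmp9.

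Mmp14, the membrane-type enzyme MT1-MMP that activates pro-MMP2 at the cell surface (chromosome 14, 54431612 to 54445364, plus strand), was spread over macrophage-like states. MHC II high cells were highest, at 227.5 CPM (207.7 to 248.8, 482 UMIs) and 250.8 CPM (232.9 to 269.6, 731 UMIs), a log2 ratio of 0.14 (-0.03 to 0.31). With clusters in place of gates both levels were lower and lay below these intervals, as given in the closing section. Other macrophage-like cells followed at 178.1 and 196.6 CPM and hypoxic cells at 142.8 and 189.4. In the library labelled Irg1+/+ these 3 classes were apart from one another, and in the library labelled Irg1-/- the other macrophage-like and hypoxic cells were not. In hypoxic cells, where Mmp12 and Mmp13 were lower in the library labelled Irg1-/-, Mmp14 had a log2 ratio of 0.41 (0.20 to 0.61). After thinning, 39.4% and 39.3% of MHC II high cells had a UMI, against 1.05% and 1.93% of T, NK and B-like cells, and before thinning 54.2% and 59.9%, against 3.59% and 3.43%.

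Mmp19 (chromosome 10, 128790910 to 128800824, plus strand), an enzyme that cuts basement membrane proteins, had Vcan monocyte-like cells as its leading class. Vcan monocyte-like cells were at 77.3 CPM (66.4 to 89.6, 178 UMIs) and 104.6 CPM (93.6 to 116.6, 328 UMIs), a log2 ratio of 0.43 (0.17 to 0.71). Among the markers of this class Chil3 was at 2450 and 1131 CPM and Ly6c2 at 2909 and 4876 CPM, so that its marker levels were not alike. Clusters, an alternative to gates, that took its name held 370 and 434, 363 and 319, and 129 and 454 cells. Whether the class held other cells or like cells with other expression was not tested. The part of this in its ratios of Mmp19, Mmp8, Mmp12, Mmp13, Mmp25 and Timp1 was not tested either. Interferon Vcan monocyte-like cells, which also carry Cxcl9, Cxcl10, Gbp2 and Gbp5, were at 85.0 and 71.4 CPM and were not apart from them in the library labelled Irg1+/+. In the library labelled Irg1-/- the Ccl24 Mgl2 (114.9 CPM) and Retnla Ear2 (118.9 CPM, 26 cells) states were as high, with intervals that overlapped. The macrophage-like states did not share 1 direction. Mrc1 high cells were at 19.2 and 66.5 CPM (log2 ratio 1.79, 1.25 to 2.34) and Ccl24 Mgl2 cells at 43.4 and 114.9 CPM (1.40, 0.84 to 1.98), while MHC II high cells were at 38.2 and 26.4 CPM (-0.53, -1.003 to -0.07). T, NK and B-like cells were at 7.86 and 8.25 CPM. After thinning, 9.37% and 13.5% of Vcan monocyte-like cells had a UMI, against 1.05% and 1.31%, and before thinning 21.9% and 25.3%, against 3.20% and 3.11%.

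**Figure D4:**
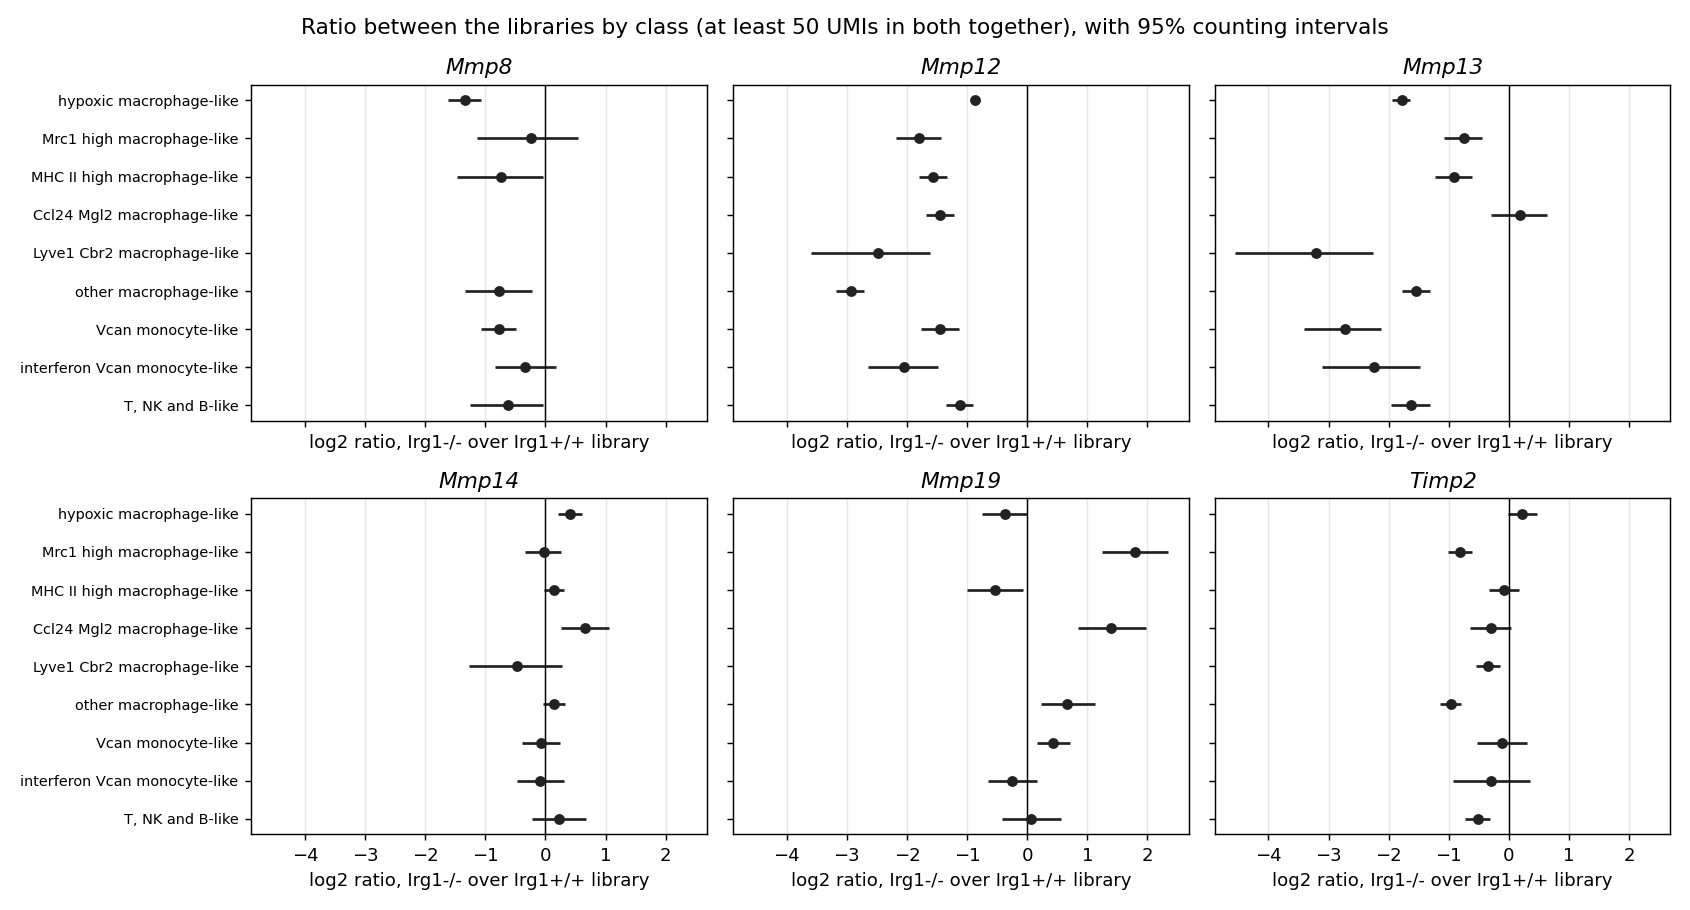
Log2 ratio of CPM, library labelled Irg1-/- over library labelled Irg1+/+ (horizontal axis), for 6 genes in macrophage-like and monocyte-like classes and T, NK and B-like cells, where both libraries together have at least 50 UMIs, with bars for 95% counting intervals. Mmp12 lies left of 0 in every class drawn, Mmp13 in every class but Ccl24 Mgl2 (0.18), and Mmp19 on both sides of 0.

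The inhibitors were highest in different classes. Timp2 (chromosome 11, 118301069 to 118355740, minus strand), which inhibits soluble enzymes and also takes part in the activation of pro-MMP2 by MMP14, was highest in Lyve1 Cbr2 macrophage-like cells. There it had 521 UMIs in 31 cells (905.5 CPM, 829.4 to 986.7) and 351 UMIs in 48 cells (714.7 CPM, 641.9 to 793.5), a log2 ratio of -0.34 (-0.54 to -0.14). With gate cutoffs 1.5 times as high, the direction changed, to 0.11, and clusters with their first names, an alternative chosen after seeing the data, gave 413.5 and 387.2 CPM. The class was not alike in both libraries: its marker list was at 1203 and 1975 CPM, Lyve1 at 29.5 and 443.9 CPM and Cd163 at 62.6 and 183.3 CPM, and the part of this in the Timp2 ratio was not tested. Below it came Mrc1 high cells, at 465.3 and 265.0 CPM (log2 ratio -0.81, -1.01 to -0.62), and Retnla Ear2 macrophage-like cells, at 464.7 and 435.1 CPM from only 15 and 26 cells. These were not apart in the library labelled Irg1+/+, while in the library labelled Irg1-/- Retnla Ear2 cells were second, melanoma-like cells next and Mrc1 high cells after them. Mrc1 high cells were deeper in the library labelled Irg1+/+, with a median of 16709.5 UMIs against 9576.5. Melanoma-like cells were at 320.5 and 354.4 CPM. T, NK and B-like cells had 53.3 and 37.1 CPM (-0.52, -0.73 to -0.31). After thinning, 75.0% and 56.8% of Lyve1 Cbr2 cells had a UMI, against 10.5% and 7.62% of T, NK and B-like cells, and before thinning 90.3% and 85.4%, against 21.2% and 14.7%.

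Timp1 (chromosome X, 20870166 to 20874735, plus strand), an inducible inhibitor of most soluble metalloproteinases, was sparse in immune cells. Ccl24 Mgl2 cells led with 21 UMIs in 14 cells (18.6 CPM, 11.5 to 28.5) and 24 UMIs in 12 cells (45.2 CPM, 29.0 to 67.3), a log2 ratio of 1.28 (0.37 to 2.20). With gate cutoffs 1.5 times as low the ratio was 0.13. Among the markers of this class Mgl2 was at 1264 and 719.6 CPM and Fn1 at 1976 and 3178 CPM, so that its marker levels were not alike. Whether the class held other cells or like cells with other expression was not tested. In neither library was it apart from the classes next to it in the order. In cDC2-like cells, which were not among the classes that could lead, it was at 44.9 and 41.6 CPM from 50 and 75 UMIs. After thinning, 0 of 71 and 2 of 51 Ccl24 Mgl2 cells had a UMI, against 1.13% and 1.14% of T, NK and B-like cells. The exact interval for the count of 0 reaches 5.06% of cells with a UMI and sets no limit on cells that express the gene. Before thinning the shares were 16.5% and 20.7%, against 2.92% and 2.53%. Timp1 lies inside Syn1, a gene of the opposite strand to which 199 and 178 UMIs were assigned, and whether counting used strand is not given in the sources used here. Timp2 shares its strand with Cep295nl (15 and 4 UMIs), and Mmp12 and Mmp19 overlap Mmp1b (7 and 0) and Tmem198b (33 and 32) on the opposite strand.

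**Figure D5:**
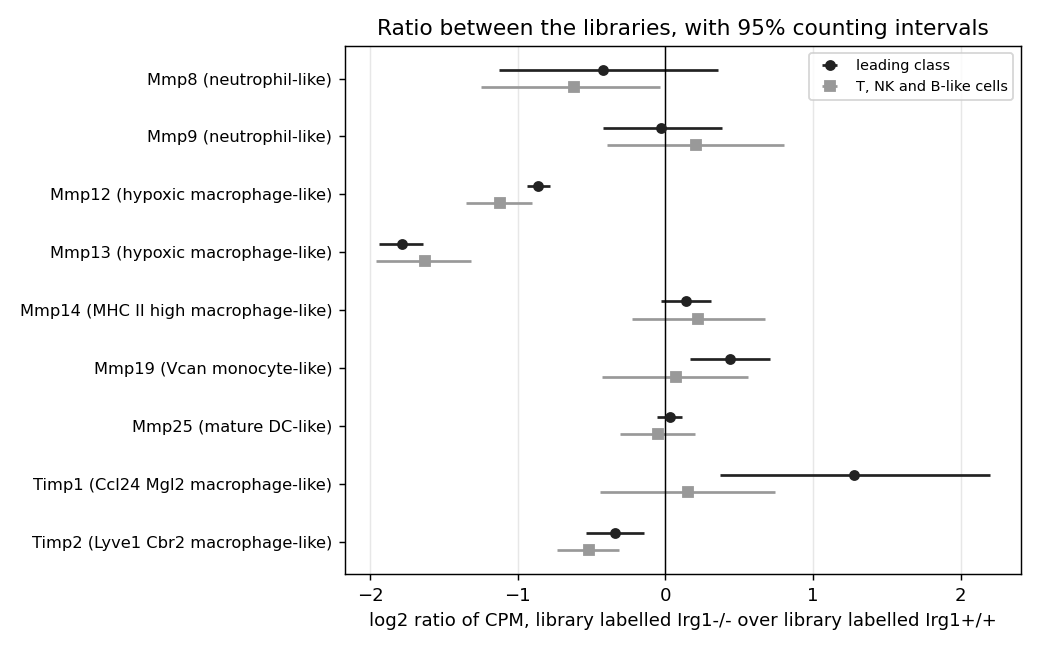
Log2 ratio of CPM, library labelled Irg1-/- over library labelled Irg1+/+ (horizontal axis), of each gene in its leading class (black) and in T, NK and B-like cells (gray), with bars for 95% counting intervals. Mmp12 (-0.86) and Mmp13 (-1.79) lie left of 0 in both kinds of cells, Mmp9 and Mmp25 lie at 0 within their intervals, and Timp1 (1.28) rests on 21 and 24 UMIs and is at 0.13 with lower gate cutoffs.

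The members were chosen with earlier results of these data known, so the counts that follow describe them and do not test them. To set the members against other genes, the genes with at least 50 UMIs in a class were counted that differed at least 1.5-fold between the libraries. In hypoxic cells 3 of the 8 members with that many UMIs were lower in the library labelled Irg1-/- (Mmp8, Mmp12 and Mmp13), where 4.69% of all 7594 such genes were lower, and 0 were higher, where 3.52% of all were. MHC II high cells had the same 3 of 8 lower and 0 higher, against 3.3% and 2.88% of all 7838 genes. Vcan monocyte-like cells had the same 3 of 8 lower and 2 higher (Mmp25 and Timp1), against 4.07% and 4.79%. In interferon Vcan monocyte-like cells 2 of 8 were lower (Mmp12 and Mmp13) and 0 higher, against 4.48% and 3.43%, but both were below the level of T, NK and B-like cells in the library labelled Irg1-/-, Mmp12 at 86.0 and 20.7 CPM and Mmp13 at 50.8 and 10.6 CPM, as was Mmp13 in Vcan monocyte-like cells, where Mmp12 was not apart from its level in NK-like cells. In Mrc1 high cells 3 of 7 were lower (Mmp12, Mmp13 and Timp2) and 1 higher (Mmp19), against 8.63% and 5.95%. Mature dendritic cell-like cells had 3 of 5 lower (Mmp12, Mmp13 and Timp2) and 0 higher, against 4.79% and 3.68%, and all 3 were there close to or below the level of T, NK and B-like cells. In neutrophil-like cells 0 of 3 differed that much, against 12.3% of 1565 genes lower and 9.65% higher. In that class TMM scaling, which moves all log2 ratios by 0.18, turned 192 genes lower and 151 higher into 103 and 251, and the Mmp9 ratio into 0.15.

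The median log2 ratio of the members tested was -0.07 in hypoxic cells and -0.35 in MHC II high cells, beside 0.01 and -0.03 over all genes tested. In Vcan monocyte-like cells it was -0.10 beside -0.01, and in mature dendritic cell-like cells -0.60 beside -0.04. The medians of Mrc1 high and interferon Vcan monocyte-like cells were -0.24 beside -0.04 and -0.28 beside -0.02. In neutrophil-like cells, with 3 members tested, the median was above that of all genes, at -0.03 beside -0.05.

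Transcripts of other cells moved with some of these differences. The melanoma list (Pmel, Mlana, Dct, Tyrp1, Tyr and Sox10) was at 181.6 CPM in hypoxic cells of the library labelled Irg1+/+ and 58.8 in those of the library labelled Irg1-/-, and at 167.9 and 38.9 CPM in T, NK and B-like cells. There were 50 melanoma-like cells in the first library and 7 in the second, with Mmp12 at 79.1 and 30.6 CPM, close to lymphocyte-like levels, and Mmp13 at 22.1 and 6.11, below them. The fibroblast list was at 8.09 and 28.5 CPM in hypoxic cells, opposite in direction to Mmp8, Mmp12 and Mmp13 there. Its direction was the same as that of Mmp14 (142.8 and 189.4 CPM, log2 ratio 0.41, 0.20 to 0.61). The few fibroblast-like cells carried both Mmp14 (60 and 10 UMIs) and Mmp13 (19 and 0 UMIs). The endothelial list was at 85.5 and 87.3 CPM. The part of free RNA in the difference of each member was not tested. Cells that met no gate (1223 and 871) held 20.8% and 28.9% of Mmp12 UMIs and were at 502.5 and 259.4 CPM, so that their direction was the same as in the gated macrophage-like classes.

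Pathway lists were counted in all macrophage-like cells (1295 and 1146), where 5.2% of 10482 genes were at least 1.5-fold lower in the library labelled Irg1-/- and 3.33% higher. These sums mix states of unequal share: Mrc1 high cells gave 21.9% and 10.3% of the macrophage-like UMIs, MHC II high cells 16.8% and 30.3%, and hypoxic cells 25.5% and 18.2%. From these sums alone, a shift between states and a change within them cannot be told apart. Spp1 was also lower within hypoxic cells, at 2002 and 1025 CPM. In the plasminogen system, whose protease plasmin activates several proenzymes, 2 of 5 genes with at least 50 UMIs were lower, Plau (urokinase, at 368.1 and 185.6 CPM) and Serpine2, and 0 higher. These and the other genes named beside a count were named after their values had been seen. Genes of activation, docking and clearance (such as Furin, Bsg, Cd44 and Lrp1) had 1 of 9 lower, Cd63, and 0 higher. Adam proteases, relatives of the matrix metalloproteinases, had 0 of 6 in either direction, and regulators known to induce Mmp genes (among them Fos, Jun, Nfkb1, Il1b and Tnf) had 0 of 11. Matrix and matrix-binding genes had 1 of 9 lower, Spp1, and 4 higher, Sparc, Col1a1, Col3a1 and Col4a1. The highest ratios were those of the collagen genes Col3a1, at 2.54 and 10.5 CPM (log2 ratio 2.03, 1.46 to 2.67), and Col1a1, at 4.29 and 9.14 CPM (1.09, 0.59 to 1.61), which are fibroblast genes by the list used here. The lowest were Mmp27, at 12.1 and 4.57 CPM (-1.39, -1.92 to -0.91), the only other Mmp or Timp gene with at least 50 UMIs there, and Spp1, the secreted phosphoprotein osteopontin, at 959.5 and 470.3 CPM (-1.03, -1.08 to -0.98).

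For the leading classes of Mmp12, Mmp9 and Timp2, the 3 genes of these lists with the highest fold over the other myeloid classes were taken. In hypoxic cells they included Sdc1 (syndecan 1, at 60.03 and 87.3 CPM) and Spp1 (at 2002 and 1025 CPM). Sdc1 and Spp1 were opposite in direction between the libraries. In neutrophil-like cells they were Lcn2, whose protein binds MMP9, at 302.2 and 324.7 CPM, Il1b at 7539 and 12056 CPM, and Col1a1, a fibroblast-list gene, at 43.2 and 20.7 CPM from 5 and 7 UMIs. In Lyve1 Cbr2 cells they were Mmp27 at 41.7 and 4.07 CPM from 24 and 2 UMIs, Serpine2 at 10.4 and 2.04 CPM from 6 UMIs and 1 UMI (4.21 and 2.05 in the other myeloid classes, so that the second library showed no difference) and Adam15 at 262.4 and 323.8 CPM.

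The genes whose pattern was most like that of each member were sought by Pearson's r of log2(CPM + 1) over 36 values, 18 classes in each library, among 9250 genes. The values share libraries, depth and free RNA, and r is a description. Mmp12 was most like Mmp13 (r = 0.86) and Gpnmb (0.84), and Mmp13 most like Flrt2 (0.87), Lonrf3 (0.87) and Mmp12. Mmp8 went with Smox (0.85), Inhba (0.84) and Kcnj2 (0.83), and Mmp9 with Retnlg (0.84), Pnpla7 (0.84) and Ubap1 (0.80). Mmp14 went with Ctsc (0.91), Ctss (0.90) and Cndp2 (0.89), proteases and a peptidase of the lysosome and cytosol. Mmp19 was most like Itga5 (0.85), Vcan (0.85, a gate marker) and Tfec (0.83), and Mmp25 most like Ramp3 (0.88), Nfkbib (0.86) and Fscn1 (0.85, a gate marker). Timp1 went with Gm4951 (0.83), Chmp2a (0.81) and Mgst3 (0.79). Timp2 was most like Tpp1 (0.93), Ctsd (0.89) and Stab1 (0.88).

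Summed levels of enzymes and of inhibitors changed from class to class. In all macrophage-like cells the 7 Mmp genes together were at 1379 CPM in the library labelled Irg1+/+ and 659 in the library labelled Irg1-/-, and both Timp genes together at 295.7 and 205.0 CPM. Hypoxic cells had 3096 and 1602 CPM of Mmp genes against 132.8 and 158.0 CPM of Timp genes. Lyve1 Cbr2 cells had 417.1 and 199.5 CPM of Mmp genes and 912.5 and 733.0 CPM of Timp genes, most of the latter Timp2. Of thinned hypoxic cells, 70.5% and 65.9% had a UMI of any of the 7 Mmp genes, 14.9% and 18.3% of either Timp gene, and 10.1% and 12.7% of both kinds, against 24.8% and 15.1%, 11.5% and 8.67%, and 2.67% and 2.10% of T, NK and B-like cells.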

How the data were processed

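The counts are raw UMIs per gene and cell in 2 matrices deposited by the authors, who trimmed reads with fastp, listed barcodes with UMI-tools and aligned with STAR to GRCm38 (Ensembl release 100), as the study's methods and the submitters' processing notes give it. Whether counting used strand is not given in the sources used here. UMIs correct for PCR copies, but a UMI count still depends on capture, depth and free RNA.

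Python 3.11.15 (numpy 2.4.6, scipy 1.17.1, pandas 2.3.3, scanpy 1.11.5), R 4.3.3 and edgeR 4.0.16 were used. Cells with over 200 genes and under 10% mt- UMIs were kept (124 and 102 removed) and mt- genes left out. A cell entered a class when the UMIs of its marker list per 10000 reached a cutoff with at least 3 marker UMIs, and cells meeting no gate or 2 or more gates were kept apart. UMIs were summed per class and library as CPM with exact 95% Poisson intervals. Ratios had 0.5 UMIs added to each sum and an exact conditional binomial interval. Shares had exact Clopper-Pearson intervals, and thinning drew 2000 UMIs per cell. With 1 library per genotype no test was made. The code was run on simulated counts: over 7594 genes of hypoxic cells with 200 genes changed, 100% of signs and 95.0% of intervals of changed genes were right. Those counts were drawn from the Poisson model that the intervals assume, so the run checks the arithmetic only. It cannot show whether the intervals hold for genes whose UMIs lie mostly in few cells, such as Mmp12 and Mmp13.

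Genes compared between libraries had at least 50 UMIs in a class and were counted when CPM differed at least 1.5-fold. Apart from the members, genes named were the 2 highest and 2 lowest pathway ratios, the 3 pathway genes with the highest fold in a leading class, and the 3 genes most like each member among those with at least 500 UMIs. Of the genes printed beside a count of 5 or fewer, Plau, Cd63, Sparc and Col4a1 were outside this rule and named after their values had been seen. Some genes that this rule names are not reported here. Scrublet called 0 of 6284 and 0 of 5794 cells doublets and was not used to remove cells. As an alternative, 328 and 327 cells with the top 5% of scores were left out. Positions are of GENCODE M21 (GRCm38) and promoters of RefSeq (GRCm38.p6).

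The members and all lists were chosen with earlier results of these data known. Gates were to be set on marker values alone, but 1 was revised and 2 were added after the members' values had been seen: Serpinb2 was taken out of the eosinophil gate, and fibroblast and mast cell gates were added. The naming of clusters, an alternative to gates, was likewise revised, since naming by highest score alone had called 2 large clusters mast-like.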

Additional observations from a re-analysis of the deposited data

Results flagged for a closer look

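Fibroblast-like cells, called by Col1a1, Col1a2, Col3a1, Dcn, Pdgfra, Pdgfrb and Lum, entered no comparison, yet the counting intervals of several members there lay above those of T, NK and B-like cells. There were 7 such cells in the library labelled Irg1+/+ and 2 in the library labelled Irg1-/-, so that every value rests on few cells. Timp1 was at 1515 CPM (52 UMIs) in the first and 1858 CPM (63 UMIs) in the second, which is 8.83% and 10.3% of all its UMIs. Mmp14 was at 1748 CPM (60 UMIs) and 294.9 CPM (10 UMIs). Timp2 was at 495.4 CPM (17 UMIs) and 176.9 CPM (6 UMIs), and Mmp13 at 553.7 CPM (19 UMIs in 4 cells) and 0 CPM (0 UMIs in 2 cells). The gate for these cells was added after the members' values had been seen.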

How the results depend on the processing

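No paired analysis was possible because each genotype is 1 library, and no replicate could be left out. Of 122 ratios under alternatives 103 stayed within the counting interval of the value reported, as did 42 of 64 levels, and 36 of 56 counts stayed within 1.5 times. The first version of the gates, the clusters with their first names, the subtraction of the lymphocyte-like level and the omission of the richest cell were chosen after seeing the data. The cause of each move was not tested unless given. The ratio of Mmp12 was -0.76 with cutoffs 1.5 times as high, -0.72 as the mean of each cell's CPM, -0.71 in thinned cells and -0.99 in clusters with their first names. That of Mmp13 was -1.59 in clusters, -1.53 and -1.98 with cutoffs 1.5 times as high and as low, -1.50 as the mean of each cell's CPM, -1.38 in thinned cells and -1.96 in clusters with their first names. Mmp19 was at 0.15 with high cutoffs and 0.87 in thinned cells, and Mmp25 at 0.13 with low cutoffs and -0.067 in thinned cells. Timp1 was at 0.13 with low cutoffs and 3.28 in thinned cells, where it rests on 0 and 3 UMIs. Timp2 was at 0.11 with high cutoffs, the other direction, -0.64 as the mean of each cell's CPM and -0.094 in clusters with their first names. With revised names no cluster gave a value for Timp1 or Timp2. Clusters in place of gates gave levels of 453.0 and 452.0 CPM for Mmp9 and 917.3 and 918.8 for Mmp25 with both namings, 2282 and 1216 for Mmp12 (1680 and 845.6 with first names), 1013 and 335.7 for Mmp13 (215.5 with first names in the library labelled Irg1-/-), 145.4 and 170.3 for Mmp14, 65.7 for Mmp19 in the library labelled Irg1+/+ with both namings, and 413.5 and 387.2 for Timp2 with first names. Mmp25 was at 1057 CPM in the library labelled Irg1+/+ without the top 5% of doublet scores. With at least 200 UMIs in place of 50 fewer genes enter. The genes lower and higher in the library labelled Irg1-/- were then 73 and 52 in hypoxic, 131 and 143 in Mrc1 high, 49 and 48 in MHC II high, 97 and 119 in Vcan monocyte-like, 24 and 43 in interferon Vcan monocyte-like, 12 and 30 in neutrophil-like and 54 and 72 in mature dendritic cell-like cells. Of the members, 0 were then higher in Mrc1 high and in Vcan monocyte-like cells, 0 lower in interferon Vcan monocyte-like and 1 lower in mature dendritic cell-like cells. The members lost there had too few UMIs to enter: Mmp19 119 in the first class, and Mmp25 193 and Timp1 97 in the second. Mmp12 had 125 and Mmp13 71 in the third, and Mmp13 102 and Timp2 92 in the fourth. These drops follow from the filter and say nothing on whether the members differed. Shares of all genes at 200 UMIs are not given here. TMM scaling gave 103 lower and 251 higher genes in neutrophil-like cells. Classes of few cells and genes of few UMIs, such as Mmp8 in neutrophil-like cells and Timp1, are limited by depth.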
